A study of Mus musculus with 6 samples.

Results

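The expression of 9 genes that mark megakaryocytes and platelets was followed in CD4+ T cells, and 8 of them had a probe set. They were the chemokines Pf4 and Ppbp, the platelet glycoproteins Gp9, Gp1ba and Gp5, the integrin subunits Itga2b and Itgb3, and the surface receptors Treml1 and Clec1b. The members were all probe sets whose gene symbol is exactly 1 of these names, which gave 8 probe sets of the 34760 on the array, 1 per gene. No probe set matched Gp1ba by this rule, so it has no value here. Levels were measured on Affymetrix arrays in CBS-KO cells (3 arrays) and in WT cells (3 arrays), all from C57BL/6 mice at 6 weeks of age. CBS is cystathionine beta-synthase, which joins homocysteine and serine to cystathionine. The labels call the arrays biological replicates. Nothing in the sources used here states the allele, the method of cell isolation or the purity reached.

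Megakaryocytes are the bone marrow cells that shed platelets, the anucleate fragments that stop bleeding. Platelets bind von Willebrand factor through the GPIb-IX-V complex (Gp1ba, Gp1bb, Gp9 and Gp5) and fibrinogen through the integrin alphaIIb-beta3 (Itga2b and Itgb3), and they release chemokines from alpha granules. Platelets can adhere to leukocytes. Several regulators of megakaryocytes, Gata1 among them, are shared with red cell precursors.

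The members did not share a direction. Itgb3 fell in CBS-KO cells, to 0.41 times the WT level (log2 fold change -1.29), and was the only member past the threshold of the main test, an adjusted p of 0.05 over all probe sets, which 3.24% of them passed. The other 7 members had positive differences, of 0.09 to 1.34 log2 units, with Gp9 the largest, and none of them passed. By limma, 0 members were called higher, where 1.73% of all probe sets were, and 1 of 8 was called lower, where 1.51% were. At an unadjusted p under 0.05, 4 members were higher, where 9.01% of all probe sets were. Every CBS-KO array lay above every WT array for 4 of the 8 members (10.4% of all probe sets) and below for 1 (17.4%). The median difference over the 8 members was 0.37, and over all probe sets it was -0.04. Bulk RNA was measured, so a change in the number of cells of a type and a change in RNA per cell cannot be told apart. Y-linked genes gave signal on 2 of 3 CBS-KO arrays (CBS-KO 1 and 2) and on 0 of 3 WT arrays, so sex and genotype were partly confounded. Among the CBS-KO arrays only CBS-KO 3 lacked that signal. With a term for the signal, each group difference is therefore CBS-KO 3 minus the WT mean, as it is on the arrays without the signal.

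The 4 members with all CBS-KO arrays above all WT arrays were Itga2b, Gp9, Gp5 and Clec1b, and their start-site windows are shown because they form the set that separated upward. Each window, from RefSeq (GRCm38.p6), runs from 250 bases before the transcription start to 50 bases after it, 5′ to 3′ on the gene's strand. Capitals mark a GATA-factor sequence (AGATAA or AGATAG or TGATAA or TGATAG) or an ETS-factor sequence (AGGAAG) on either strand, and no marked GATA and ETS letters overlap in these 4 windows. GATA and ETS factors are the main regulator families of megakaryocyte promoters.
Gp9: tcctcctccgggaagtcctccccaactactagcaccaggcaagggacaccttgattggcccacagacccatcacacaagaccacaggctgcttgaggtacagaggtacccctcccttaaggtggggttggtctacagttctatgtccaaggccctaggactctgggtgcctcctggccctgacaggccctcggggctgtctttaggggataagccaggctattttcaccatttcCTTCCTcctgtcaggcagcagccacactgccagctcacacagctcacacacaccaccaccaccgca
Gp5: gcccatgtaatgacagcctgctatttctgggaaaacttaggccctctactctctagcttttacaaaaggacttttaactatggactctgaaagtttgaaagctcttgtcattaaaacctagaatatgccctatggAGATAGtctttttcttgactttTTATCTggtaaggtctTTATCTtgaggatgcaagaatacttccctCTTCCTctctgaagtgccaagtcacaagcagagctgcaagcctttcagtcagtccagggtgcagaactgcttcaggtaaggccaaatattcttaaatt
Itga2b: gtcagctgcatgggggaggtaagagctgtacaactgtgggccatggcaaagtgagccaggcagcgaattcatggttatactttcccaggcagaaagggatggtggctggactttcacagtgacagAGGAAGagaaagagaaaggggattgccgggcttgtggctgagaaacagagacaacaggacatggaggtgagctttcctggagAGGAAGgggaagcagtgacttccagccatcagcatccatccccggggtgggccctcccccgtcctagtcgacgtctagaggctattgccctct
Clec1b: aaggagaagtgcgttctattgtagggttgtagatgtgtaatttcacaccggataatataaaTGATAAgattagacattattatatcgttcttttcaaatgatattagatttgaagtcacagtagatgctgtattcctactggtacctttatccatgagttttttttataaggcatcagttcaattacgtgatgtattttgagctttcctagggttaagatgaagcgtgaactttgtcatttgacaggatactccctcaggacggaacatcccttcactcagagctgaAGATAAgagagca
The windows lie at chr6:87777820-87778119 on the plus strand (Gp9), chr16:30310732-30311031 on the minus strand (Gp5), chr11:102469834-102470133 on the minus strand (Itga2b) and chr6:129397047-129397346 on the plus strand (Clec1b). The listed span of the Gp9 gene is chr6:87776131-87779786, so its window lies inside the gene and not at the outer start of that span. Gp9 positions are counted from the start used for its window, and sequence at the outer start was not examined. Counting +1 as the start, Gp5 held 3 GATA sequences, whose first bases were at -115, -93 and -77, and 1 ETS sequence at -48. Clec1b held 2 GATA sequences, at -189 and 38, and no ETS sequence. Gp9 held 1 ETS sequence at -16, and Itga2b held 2, at -125 and -43, with no GATA sequence in either window. A window was listed for 8 of the 9 members, all but Itgb3, and of these 8, 4 held a GATA and 5 an ETS sequence. Of 32817 RefSeq windows of 300 bases, 29.8% held a GATA and 35.4% an ETS sequence. These matches describe letters only, and binding was not measured.

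The chemokine genes are neighbours on chromosome 5. Pf4 (probe set 10523134) encodes platelet factor 4, an alpha granule chemokine that binds heparin. Its intensity was 177, 152 and 206 in CBS-KO 1 to 3, against 115, 101 and 192 in WT 1 to 3. WT 3 stood with the CBS-KO arrays, and the groups overlapped. On the scale used for all tests, log2(intensity + 16), the level was 7.59 ± 0.20 in CBS-KO and 7.20 ± 0.44 in WT cells (SD, n = 3 each), which differed by 0.39 (limma adjusted p = 0.389, 95% confidence interval -0.18 to 0.96). Ppbp (10523128) encodes pro-platelet basic protein, the precursor of the neutrophil-attracting chemokine CXCL7. Its intensity was 1527, 671 and 1361 in CBS-KO 1 to 3, against 1027, 866 and 1252 in WT 1 to 3. CBS-KO 2 was the lowest of all 6 arrays, while CBS-KO 1 and 3 were the highest. The log2 difference was 0.11 (limma adjusted p = 0.896, 95% confidence interval -0.68 to 0.90), and leaving out CBS-KO 1, CBS-KO 3 or WT 2 turned its sign (-0.11, -0.03 and -0.02 in that order).

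Of the GPIb-IX-V complex, Gp9 and Gp5 were measured. Gp9 (10539818, chromosome 6) encodes glycoprotein IX, the small subunit that the complex needs to reach the platelet surface. Its intensity was 1118, 666 and 1271 in CBS-KO 1 to 3, against 347, 321 and 491 in WT 1 to 3. Every CBS-KO array lay above every WT array, with CBS-KO 2 nearest to them. The log2 level was 9.96 ± 0.49 in CBS-KO and 8.63 ± 0.31 in WT cells (SD, n = 3 each), a difference of 1.34 (SE 0.28, 95% confidence interval 0.65 to 2.02), or 2.52-fold, and limma's adjusted p of 0.0625 missed the threshold. Without CBS-KO 2 it was 1.61 (adjusted p = 0.0133), and it also passed after quantile normalization (0.0485) and with a filter at the 40th percentile of mean level (0.0365). Over all alternatives the adjusted p ran from 0.0133 to 0.798.

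Gp5 (10438907, chromosome 16) encodes glycoprotein V, the subunit that thrombin cleaves. Its intensity was 231, 228 and 282 in CBS-KO 1 to 3, against 165, 156 and 167 in WT 1 to 3. The groups did not overlap, and the WT arrays lay close together. The difference was 0.55 (SE 0.12, 95% confidence interval 0.27 to 0.83, limma adjusted p = 0.0609), with an adjusted p of 0.0401 with the filter at the 40th percentile, 0.0298 without CBS-KO 2 and a range of 0.0295 to 1 over all alternatives. Within arrays, the Gp9 difference exceeded the Gp5 difference by 0.78 log2 units. An exact two-sided permutation test of this excess gave p = 0.1, the smallest that 3 arrays against 3 allow (0.15 adjusted over the 3 pairs of members compared in this way).

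The integrin subunits had differences of opposite sign. Itga2b (10391697) encodes integrin alphaIIb, or CD41, which pairs with beta3 on megakaryocytes and platelets and also marks early blood progenitors. Its intensity was 363, 283 and 344 in CBS-KO 1 to 3, against 249.7, 247 and 270.4 in WT 1 to 3. The groups did not overlap, but CBS-KO 2 lay just above WT 3. The log2 difference was 0.34 (SE 0.13, 95% confidence interval 0.04 to 0.65, limma adjusted p = 0.178). It passed without CBS-KO 2 (0.44, adjusted p = 0.0364) and in no other alternative, and the adjusted p ran from 0.0364 to 1 over all of them.

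Itgb3 (10381809) encodes integrin beta3, or CD61, which pairs with alphaIIb in platelets and with alphaV in many other cell types. Its intensity was 794, 918 and 646 in CBS-KO 1 to 3, against 1955, 1831 and 1991 in WT 1 to 3. All CBS-KO arrays lay far below all WT arrays, and CBS-KO 3 was lowest. The log2 level was 9.63 ± 0.25 in CBS-KO and 10.92 ± 0.06 in WT cells (SD, n = 3 each), a difference of -1.29 (SE 0.15, 95% confidence interval -1.64 to -0.94, limma adjusted p = 0.0204). The call was lost without CBS-KO 1 (adjusted p = 0.0968), WT 1 (0.122), WT 2 (0.112) or WT 3 (0.056) and against a 1.5-fold change (0.183), within a range of 0.00774 to 0.183 over all alternatives, and the difference stayed between -1.55 and -1.16. Itga2b and Itgb3 both lie on chromosome 11. Within arrays, the Itga2b difference exceeded that of Itgb3 by 1.63 log2 units (exact two-sided permutation p = 0.1, the smallest possible, 0.15 adjusted over the 3 pairs), and the third pair, Pf4 over Ppbp, gave 0.28 (exact permutation p = 0.7). Itgav, the alphaV partner of beta3, had a difference of -0.42 (limma adjusted p = 0.297).

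Neither of the other surface receptors passed. Treml1 (10445789, chromosome 17) encodes TLT-1, a receptor stored in alpha granules that binds fibrinogen. Its intensity was 274, 294 and 275 in CBS-KO 1 to 3, against 253, 242 and 294 in WT 1 to 3. The groups overlapped, and the log2 difference was 0.09 (limma adjusted p = 0.691, 95% confidence interval -0.18 to 0.37). Clec1b (10542172, chromosome 6) encodes CLEC-2, the platelet receptor for podoplanin. Its intensity was 107, 132 and 125 in CBS-KO 1 to 3, against 90.3, 59.2 and 92.5 in WT 1 to 3. The groups did not overlap, and WT 2 was the lowest array. The difference was 0.52 (SE 0.17, 95% confidence interval 0.12 to 0.93, limma adjusted p = 0.131). Clec1b was the member whose mean level (6.84 on the log2 scale) lay below the 40th percentile of all probe sets, 6.99. The array's background is not known, and a fold change of such a dim probe set is understated by the added 16.

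**Figure D1:**
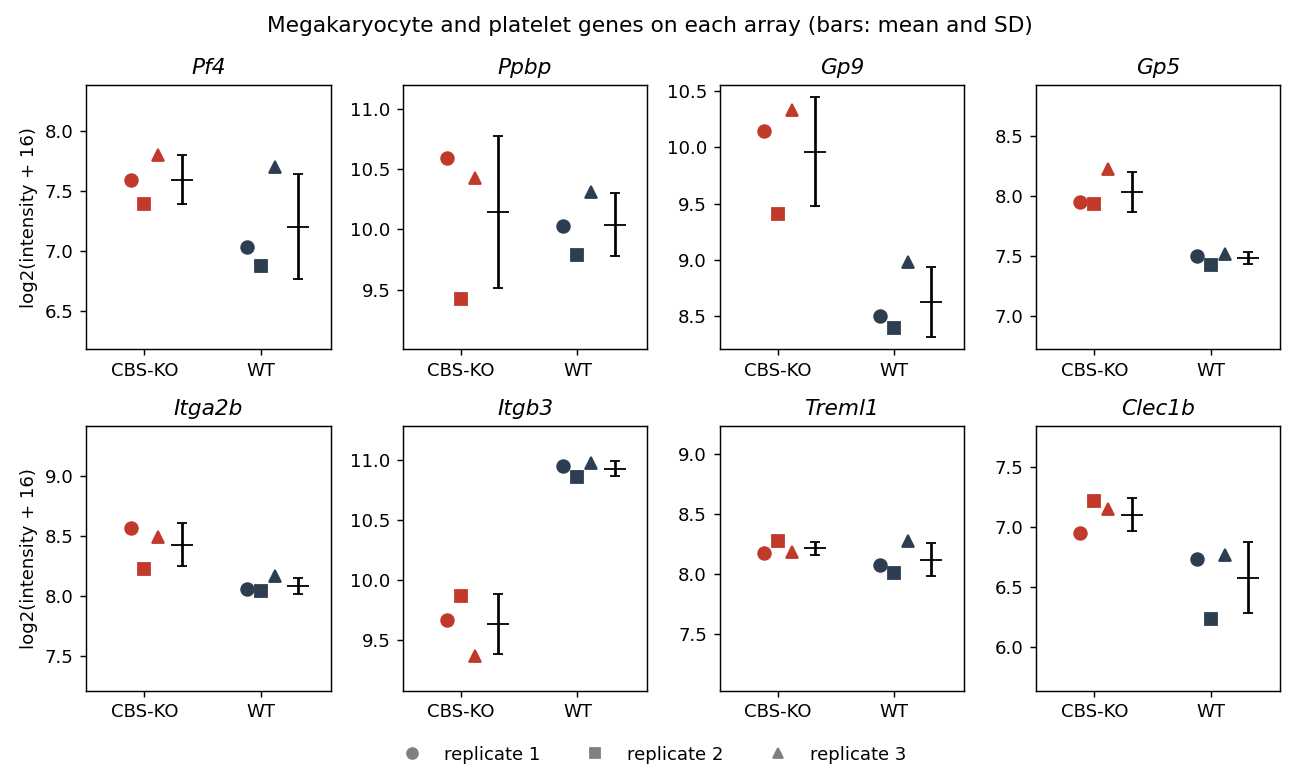
Level of each gene on each array, as log2(intensity + 16), with CBS-KO left of WT in every panel. Symbols give the replicate number and bars the mean and SD of 3 arrays. Itgb3 is below WT on all CBS-KO arrays, while Gp9, Gp5, Itga2b and Clec1b are above WT on all of them. The panels have different vertical ranges.

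**Figure D2:**
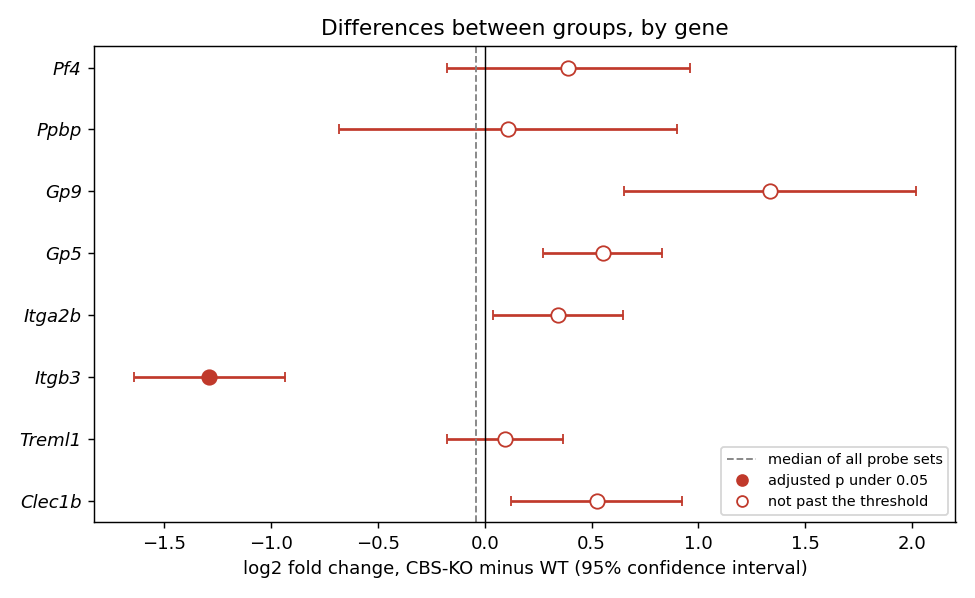
Difference of CBS-KO minus WT in log2 units for the 8 genes measured, with limma's 95% confidence intervals. Itgb3 (-1.29) is filled because its adjusted p passed 0.05, Gp9 has the largest positive value (1.34), and the dashed line is the median of all probe sets (-0.04).

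Genes most like Itgb3 were sought as the probe sets that name 1 gene and have the highest Pearson correlation with it over the 6 arrays, among 1917 probe sets with an SD of at least 0.5 log2 units. They were A930024E05Rik, Slc35d2, Zdhhc20, Plcxd2 and Apobec2, with r between 0.995 and 0.997. All 5 were lower in CBS-KO cells, with log2 fold changes of -1.25 to -0.93 (limma adjusted p = 0.0192 to 0.0301). With 2 groups of arrays that lie apart, such a correlation follows the difference between the groups.

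Several transcription factors of megakaryocytes rose. Of 12 such factors, all measured, 5 were higher and 0 lower, with a median log2 fold change of 1.19. Gfi1b, a zinc finger repressor needed for megakaryocytes and red cells, rose by 2.84 (SE 0.35, limma adjusted p = 0.0244). Lyl1, a helix-loop-helix factor of blood progenitors, rose by 1.55 (SE 0.20), Zfpm1, which encodes the GATA1 cofactor FOG1, by 1.18 (SE 0.19), and Mafg, the small Maf partner of NF-E2, by 0.68 (SE 0.11). The fifth was Gata1, the GATA factor of megakaryocytes and red cells, named here after its value was seen. Its log2 level was 11.30, 10.16 and 11.83 in CBS-KO 1 to 3, against 8.74, 8.31 and 8.71 in WT 1 to 3. This was a rise of 2.51 (SE 0.42, adjusted p = 0.0395). Fli1, the ETS factor of platelet genes, also named after its value was seen, did not pass (-0.38, adjusted p = 0.207). No factor passed without CBS-KO 1, WT 1 or WT 2, 1 did without CBS-KO 3, 2 without WT 3 and 9 without CBS-KO 2. With a filter at the 40th or 60th percentile of mean level 8 factors were higher, and against a 1.5-fold change none was. With a term for the Y-linked signal 6 were higher and 1 lower, and Mafg missed the threshold (adjusted p = 0.0529).

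Genes of platelet granules, enzymes and signalling were mostly below the threshold. Of 12 granule genes, 11 were measured and 3 were higher, with a median of 0.26. F13a1, a coagulation factor XIII subunit also made by monocytes, rose by 2.95 (SE 0.31, limma adjusted p = 0.0175), coagulation factor F5 by 0.92 (SE 0.14) and the adhesive glycoprotein gene Thbs1 by 0.93 (SE 0.17). Of 16 enzyme and cytoskeleton genes, 15 were measured and 2 were higher, with a median of 0.14. These were Vcl, the adhesion protein vinculin (2.28, SE 0.30), and Tbxas1, the thromboxane synthase that macrophages also use (1.07, SE 0.13). Of 12 genes of ITAM signalling, the tyrosine kinase route that GPVI uses, 11 were measured and 2 were higher, with a median of 0.00. They were Fcer1g, the adaptor of GPVI and of Fc receptors (2.22, SE 0.24), and the kinase gene Btk (1.55, SE 0.25). Without CBS-KO 1, WT 1 or WT 2, 0 genes of these 3 lists passed, and without CBS-KO 3 or WT 3, 1 of each did. Without CBS-KO 2, 3 of each list were higher, and 3 ITAM and 2 enzyme and cytoskeleton genes were lower. With the term for Y-linked signal 4 ITAM and 2 enzyme and cytoskeleton genes were lower. Over all probe sets, 2834 were higher and 2460 lower without CBS-KO 2, and 1764 were lower with the term.

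Among other platelet receptors 1 gene fell. Of 18 listed, 15 were measured, with a median of 0.24, and Itga6, the alpha chain of a laminin receptor that T cells also carry, was lower (-0.94, SE 0.15, limma adjusted p = 0.0358). The receptor count was 0 when CBS-KO 1, CBS-KO 3, WT 1, WT 2 or WT 3 was left out, and 2 higher and 4 lower without CBS-KO 2. Of 10 integrin activation genes, 9 had negative differences (median -0.31), and by limma none passed, while 5 did at an unadjusted p under 0.05. Of all 34760 probe sets, 7959 passed that unadjusted level in either direction, and 13541 had a positive difference. The smallest p-values of the integrin activation list were those of the GTPase gene Rap1b (-0.39, adjusted p = 0.0718) and Bin2 (-0.51, adjusted p = 0.0765). Integrin activation genes called lower numbered 4 with the term for Y-linked signal, 2 with either filter and 4 without CBS-KO 2. The number of all probe sets called lower also rose in these fits, from 524 in the main test. It was 1764 with the term, 933 and 910 with the filters at the 40th and 60th percentile, which tested fewer probe sets, and 2460 without CBS-KO 2. Of 7 growth signalling genes, 5 were measured (median 0.10) and by limma none passed, with 4 at an unadjusted p under 0.05. These 4 went both ways. The receptor gene Kit (1.55, adjusted p = 0.0585) and Stat5a (0.33, adjusted p = 0.132) had the smallest p-values and were higher. Stat5b (-0.22) and Jak2 (-0.24), named after their values were seen, were lower. Of 9 ligand and partner genes, 8 were measured, and only Cxcr2, the neutrophil receptor for the product of Ppbp, was higher (3.51, SE 0.51, adjusted p = 0.0312). Cxcr2 lost its call when CBS-KO 1 or any 1 WT array was left out. Without CBS-KO 2, 2 growth signalling genes were higher. Over all these lists, 13 of 85 distinct measured genes were higher and 1 was lower, against 1.73% and 1.51% of all probe sets. Of the 21640 probe sets naming 1 gene, 495 were higher and 310 lower. The lists were chosen with earlier results of these data known. The count of higher genes in the lists was 0 without CBS-KO 1, WT 1 or WT 2, 5 without CBS-KO 3 or WT 3, and 23 without CBS-KO 2, when 13 were lower.

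**Figure D3:**
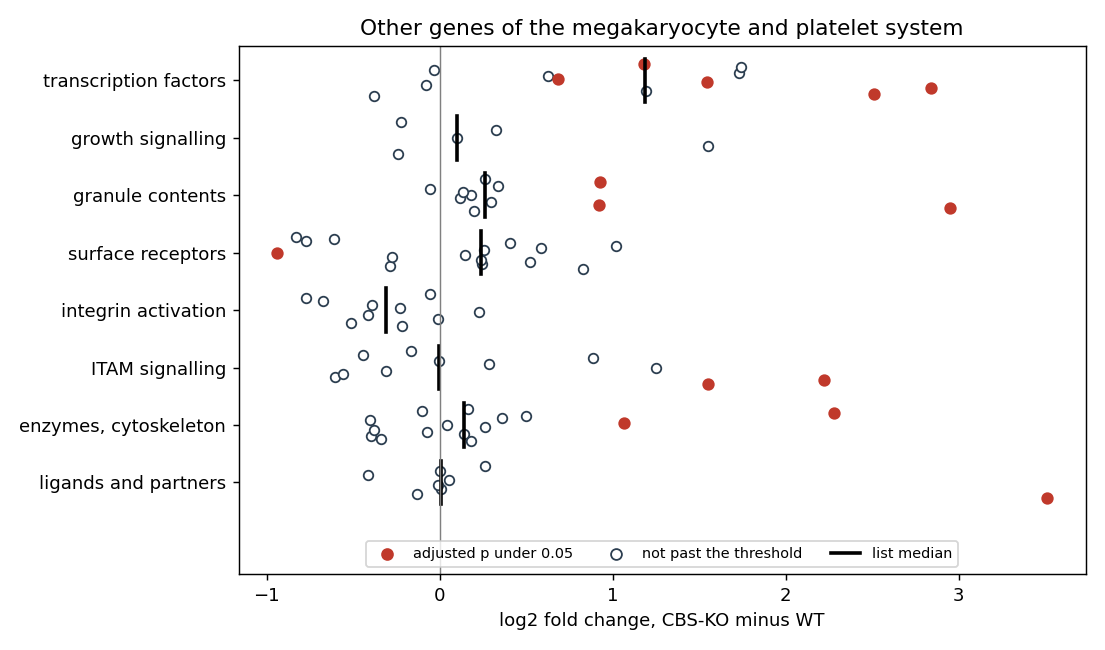
Differences of CBS-KO minus WT in log2 units for the other genes of the megakaryocyte and platelet system, 1 point per gene and 1 line per list, with filled points past an adjusted p of 0.05 and a bar at the list median. The transcription factors have the highest median (1.19) and hold 5 filled points, and 1 receptor gene, Itga6, is filled below 0.

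Markers of several other blood cell types also differed between the groups. Of 8 measured red cell precursor genes (10 listed), all 8 were higher in CBS-KO cells, with a median of 3.26, and their summed intensity was 25622, 12450 and 31088 in CBS-KO 1 to 3, against 2062, 1275 and 2445 in WT 1 to 3. CBS-KO 2 was lowest among the CBS-KO arrays and WT 3 highest among the WT arrays. CBS-KO 2 was also the lowest CBS-KO array for the neutrophil, progenitor, mast cell and basophil, and endothelial sums. For the monocyte and macrophage, B cell and CD4+ T cell sums it was the highest CBS-KO array. Of 10 neutrophil genes, 9 were higher (median 3.59), with sums of 23323 to 35526 in CBS-KO and 1263 to 2746 in WT arrays. Of 10 monocyte and macrophage genes, 8 were higher (median 2.37), with sums of 14981 to 20587 in CBS-KO and 2216 to 4322 in WT arrays. Of 7 measured progenitor genes (8 listed), 2 were higher (median 1.55), with sums of 5917 to 10673 in CBS-KO and 3215 to 4251 in WT arrays. This list is not separate from those above, since Gata2 and Meis1 are also among the transcription factors and Kit among the growth signalling genes. Lat is likewise in both the ITAM and the CD4+ T cell list. Of 7 mast cell and basophil genes, 1 was higher (median 1.20), with sums of 1588 to 4298 in CBS-KO and 914 to 1232 in WT arrays. By limma, none of 6 endothelial genes passed (median 0.08), and 1 did at an unadjusted p under 0.05, as did 7959 of all 34760 probe sets. All 6 endothelial differences were positive, with sums of 1294 to 2633 in CBS-KO and 631 to 903 in WT arrays. A sum weighs the brightest genes most. The 1 endothelial gene kept by the filter at the 60th percentile of mean level had a difference of 2.09, far above the list median, so the sums do not show a rise of the list as a whole. Of 5 measured B cell genes (6 listed) none passed at either level (median -0.23). Their sums were 5040, 13025 and 3601 in CBS-KO 1 to 3, against 6622, 6121 and 9099 in WT 1 to 3. The red cell count was 1 without CBS-KO 1, WT 1 or WT 2 and 2 without WT 3, and the neutrophil count was 2 or 3 without CBS-KO 1, WT 1 or WT 2 and 6 without CBS-KO 3. The monocyte count was 0 without CBS-KO 1, WT 1 or WT 2, 3 without CBS-KO 3 and 5 without WT 3. It was 4 with the term for Y-linked signal and 3 on the 4 arrays without that signal, where the mast cell and basophil count was 6. With the term the progenitor count was 1. Against a 1.5-fold change 2 red cell, 5 neutrophil and 0 monocyte genes passed. Without CBS-KO 2, all 7 progenitor and all 7 mast cell and basophil genes were higher, and without CBS-KO 1, WT 1 or WT 2 none of them was, while 1 progenitor gene was without CBS-KO 3. No marker was at 0 on any array, since the lowest intensity in the table was 7.44. The part of these cells in the members' differences was not tested. The CD4+ T cell markers were present, with summed intensities of 34959 to 55473 in CBS-KO and 64750 to 71732 in WT arrays, and 2 of 9 measured (10 listed) were lower (median -0.64), with 8 lower when CBS-KO 2 was left out, 1 lower when CBS-KO 3 was left out and 0 when any other single array was left out. The count was also 8 with the term for Y-linked signal, and it was 4 with a common array median. Over all probe sets, those called lower numbered 2460 without CBS-KO 2, 1764 with that term and 728 with the common median.

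**Figure D4:**
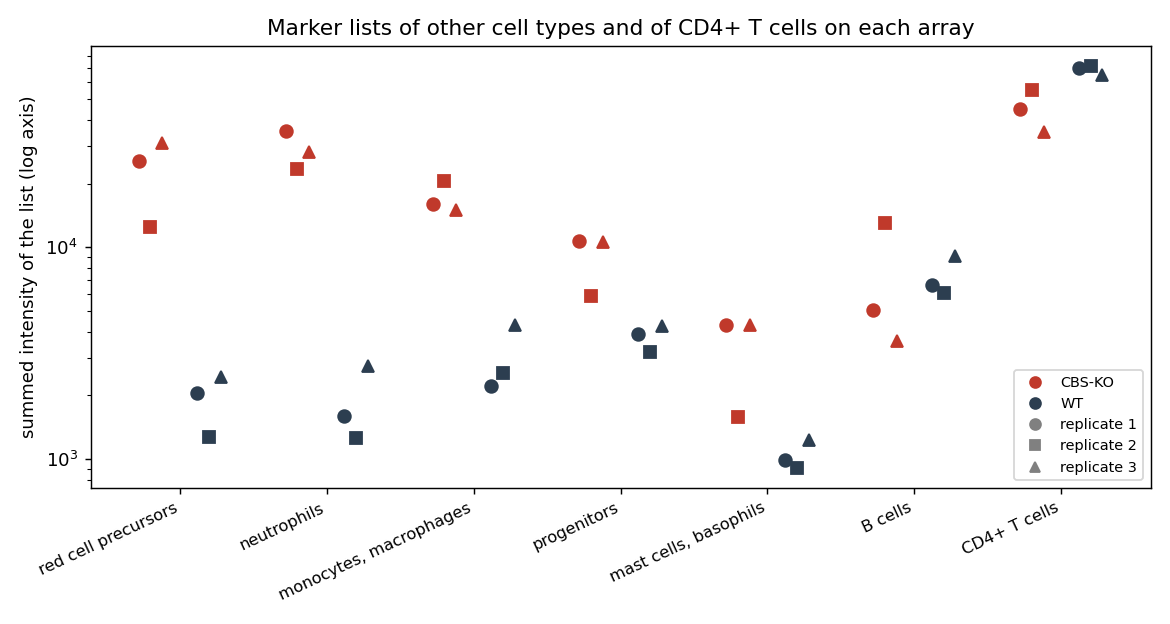
Summed intensity of each marker list except the endothelial one on each array, on a log axis, with CBS-KO left of WT and symbols for the replicate number. Red cell precursor, neutrophil and monocyte lists are higher on all CBS-KO arrays, the CD4+ T cell list is lower on all of them, and the B cell list overlaps.

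With the 4 arrays without Y-linked signal alone, an estimate that rests on CBS-KO 3, Itgb3 differed by -1.55, Gp9 by 1.70 and Gp5 by 0.74. The term for Y-linked signal gave the same differences, since they rest on the same comparison. Cbs itself did not separate the groups (0.06, limma adjusted p = 0.845), and nothing in the sources used here says where in the gene its probe set lies, so it does not check the labels. Array medians were 149 to 171, and the number of arrays limits the precision of every value.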

How the data were processed

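The authors deposited linear intensity values, a scale read from the numbers themselves; per the labels' protocols, biotinylated cRNA was made from 6 ug of total RNA. How background, normalization, probe set summary and centring were handled is not stated in those sources. All 34760 probe sets were tested as log2(intensity + 16), with no intensity filter, by limma 3.58.1 (R 4.3.3, lmFit and eBayes with a trend, two-sided) for CBS-KO minus WT, with Benjamini-Hochberg adjustment and a threshold of 0.05. Of the probe sets, 21640 named 1 gene, 1321 several and 11799 none. Member identifiers matched for 8 of 9 genes, with no symbol changed. Members and lists were chosen with earlier results of these data known.

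All members were named. In each list of the megakaryocyte and platelet system the genes past the threshold were named, up to the 4 of smallest p, or else the 2 of smallest p, each by its brightest probe set; lists of other cell types were given by counts and summed intensity. Same-numbered CBS-KO and WT arrays had correlations of deviations of 0.05, 0.13 and 0.08, and arrays of unlike number -0.09 to 0.02. The labels name no pairs, so numbers were not taken as pairs in the main test. Alternatives were 2 normalizations, 2 filters, 2 offsets, other variance models, a replicate block, a 1.5-fold threshold, a term for Y-linked signal, each array left out and, added after the data were seen, the arrays without Y-linked signal alone. Figures used matplotlib 3.10.9.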

Additional observations from a re-analysis of the deposited data

How the results depend on the processing

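The number of probe sets called, 1126, was 1995 and 1828 with filters at the 40th and 60th percentile, 45 against a 1.5-fold change, 2976 with a term for Y-linked signal, 4967 on the arrays without it, and 15 to 5294 with 1 array left out. Members called higher, 0, became 1 after quantile normalization, 2 and 1 with the filters at the 40th and 60th percentile, 1 without a variance trend, 1 with the Y-linked term, 2 on the arrays without that signal, and 0 to 3 with 1 array left out. Members called lower, 1, became 0 against a 1.5-fold change and 0 to 1 with 1 array left out. The median member difference, 0.37, was 0.23 with the filter at the 60th percentile, which kept 4 members, 0.49 with the Y-linked term and on the arrays without that signal, and 0.27 to 0.48 with 1 array left out. Pathway genes called higher, 13, became 0 against a 1.5-fold change and 0 to 23 with 1 array left out. Those called lower, 1, became 2 after quantile normalization and without a variance trend, 3 with a common median, 5 with either filter, 0 against a 1.5-fold change, 13 with the Y-linked term, 14 on the arrays without that signal, and 0 to 13 with 1 array left out. The Ppbp difference ran from -0.11 to 0.47 with 1 array left out, and was negative in 3 of these 6 fits (-0.11, -0.03 and -0.02). With the replicate number as a block, 750 probe sets, 1 member higher (Gp9, adjusted p = 0.0468) and 1 lower, and 10 and 1 pathway genes were called, with a median member difference of 0.37. Under the block 3 transcription factors were higher (Zfpm1, adjusted p = 0.0607, and Mafg, 0.0695, lost their calls), Cxcr2 and Thbs1 lost theirs, 5 monocyte and macrophage genes were higher and 1 CD4+ T cell gene was lower. Each CBS-KO array correlated best with the WT array of its own number, which comes from the data and not from the design. The values correlated were deviations from group means, which cancel within a group. The correlations therefore constrain one another, and with r of 0.13 at most they do not establish pairs. Where an array left out or a fold threshold lowered a count, fewer arrays or a stricter test are part of that alternative. Leaving out CBS-KO 2 instead raised the number of probe sets called, to 5294. For that and for the other alternatives the cause was not tested. With the term for Y-linked signal and on the arrays without that signal alone, every difference rests on CBS-KO 3 against the WT arrays. These 2 alternatives are therefore not separate adjustments for sex. On the arrays without Y-linked signal, the lone CBS-KO array is assumed to vary like the WT arrays. Signal over background is not known for dim probe sets such as that of Clec1b.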
